A study of Rattus norvegicus with 11 samples.

Results

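The genes described here are the ligands Gas6 and Pros1 and the receptors Axl, Mertk and Tyro3, taken from the deposited expression table by gene symbol. They are 5 of its 18507 genes, and all 5 passed the filter on low values at both weeks. The table gives FPKM, a fragment count scaled by exon length and by all fragments mapped, for bladder tissue of Sprague-Dawley rats with partial bladder outlet obstruction (PBOO) and of normal rats. The groups were PBOO at week 4 (n = 3), normal at week 4 (n = 3), PBOO at week 5 (n = 2) and normal at week 5 (n = 3). Each PBOO group was compared with the normal group of its own week, and the question behind the design was how the obstructed bladder differs between the weeks. According to the methods, the rats were female, obstruction was made by a suture around the bladder neck and urethra, and controls had the abdominal incision alone. The labels call the controls normal, describe those of week 5 as adult and give no other age. The study describes its replicates as biological and left out a PBOO sample of week 5 on library quality, but the labels tie no library to an animal, and p-values measure the spread between these samples. The study singled out Gas6, with Fgf2, as a secreted protein that was high at week 4 and low at week 5. It drew on these same libraries together with its proteomic data, so the direction of Gas6 is not independent evidence.

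The TAM receptors, named after Tyro3, Axl and Mertk, are receptor tyrosine kinases that respond to dying cells. Their ligands Gas6 and protein S, the product of Pros1, carry a Gla domain whose glutamates are carboxylated with the help of vitamin K, and through it they hold phosphatidylserine, the lipid that dying cells expose. Gas6 binds all TAM receptors and has its highest affinity for Axl, whereas protein S acts through Mertk and Tyro3 and also serves as an anticoagulant cofactor. The receptors are known for the clearance of dead cells, for restraint of innate immune signalling and, for Gas6 and Axl, for survival and migration of fibroblasts and smooth muscle cells.

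The promoters of Gas6, Axl and Tyro3 are shown because the levels of Gas6 and Axl varied in the same direction across the samples and those of Tyro3 in the opposite one. Each window runs from 250 bases before to 50 bases after the start of the gene and is taken from RefSeq (rat build GRCr8), in which all 5 genes were matched by symbol. The windows lie at chr16:82747426-82747725 on the plus strand, chr1:90423960-90424259 on the minus strand and chr3:127231653-127231952 on the plus strand. Capitals mark GC boxes, searched as GGGCGG on both strands.
Gas6: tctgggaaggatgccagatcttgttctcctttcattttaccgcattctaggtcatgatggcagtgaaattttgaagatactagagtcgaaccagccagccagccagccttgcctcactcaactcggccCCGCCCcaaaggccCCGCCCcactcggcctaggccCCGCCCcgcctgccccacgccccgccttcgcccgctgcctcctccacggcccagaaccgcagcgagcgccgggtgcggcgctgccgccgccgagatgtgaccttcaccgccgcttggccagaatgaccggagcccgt
Axl: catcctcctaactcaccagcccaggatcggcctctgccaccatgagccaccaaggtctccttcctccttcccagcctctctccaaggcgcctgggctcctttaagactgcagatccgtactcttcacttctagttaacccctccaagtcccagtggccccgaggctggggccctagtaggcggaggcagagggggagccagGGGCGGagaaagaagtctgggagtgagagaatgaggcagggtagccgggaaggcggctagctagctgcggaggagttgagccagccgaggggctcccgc
Tyro3: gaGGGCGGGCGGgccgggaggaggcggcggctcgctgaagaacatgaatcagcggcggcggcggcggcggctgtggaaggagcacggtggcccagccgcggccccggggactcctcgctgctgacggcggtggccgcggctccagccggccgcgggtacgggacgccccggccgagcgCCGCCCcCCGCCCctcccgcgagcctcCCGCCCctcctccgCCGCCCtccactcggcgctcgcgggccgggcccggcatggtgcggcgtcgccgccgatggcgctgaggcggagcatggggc

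The Gas6 window held 3 GC boxes, the Axl window 1 and the Tyro3 window 6, of which the first 2 overlap. A GC box was found in 33.1% of all 33469 RefSeq promoter windows of this length. G and C made up 65.3% of the Gas6 window, 63.0% of the Axl window and 81.3% of the Tyro3 window, against a median of 51.7% over all windows. The Tyro3 value lay at the 99.4th percentile. Pros1 had 3 GC boxes and Mertk had 2. Other motifs were also searched on both strands. The AP-1 motif was searched loosely as TGANTCA, with any middle base (7.33% of all windows), and matched once, in Tyro3, as tgaatca. The E-box CANNTG (72.1%) occurred once, in Mertk. No window of the 5 held the letters TATAAA (14.2%), the TEAD motif GGAATG (14.2%) or the CArG box of smooth muscle genes (1.64%). These matches describe letters and no binding was measured.

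The sums of the 11 columns ranged from 424961 to 564343 FPKM, and the depth behind them is unknown because the table holds no read counts. In all, 4871 genes were listed at 0 in every week 4 sample and 403 in every week 5 sample. The headers of all week 4 columns carry the word Input, and those of the week 5 columns do not. Week cannot be told apart from whatever else set the columns of the weeks apart, so levels were not tested across weeks. The tissue label was checked by markers: all 9 smooth muscle markers and 10 of 12 urothelium markers were above 0 in the week 4 groups, with Upk3b and Krt7 listed at 0, and all 9 and all 12 at week 5. Normal week 4 replicate 1 stood apart from its group. Its summed fibroblast markers were at 1136 FPKM against 4152 and 4248 in the other normal samples of that week, and its summed macrophage markers at 99.4 against 697 and 740. It also had the lowest Gas6, Pros1, Axl and Mertk and the highest Tyro3 of its group, and the main week 4 values are therefore given with and without it.

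At week 4, Gas6 and Axl were higher in every PBOO sample than in every normal sample and Tyro3 was lower, but none of the differences passed the test. A gene was called in limma at a Benjamini-Hochberg adjusted p under 0.05 with at least a 2-fold change on the log2(FPKM + 0.1) scale. None of the 5 genes met this, against 0.371% of the 11320 genes tested. At an unadjusted p under 0.05, Gas6 and Axl were higher (5.76% of all genes) and Tyro3 was lower (26.2%). The normal samples had Gas6 at 103, 127 and 153 FPKM and the PBOO samples at 190, 184 and 177 FPKM. The groups did not overlap, and PBOO samples were closer to each other than the normal samples were. The mean of 128 ± 24.7 FPKM (SD, n = 3) stood against 184 ± 6.09 (n = 3), and the log2 fold change was 0.54 (SE 0.15, limma adjusted p = 0.0822). Pros1 was at 17.1, 27.3 and 26.7 FPKM in normal and at 21.1, 21.8 and 19.9 in PBOO samples. All PBOO values lay within the normal range, and the log2 fold change was -0.15 (SE 0.19, limma adjusted p = 0.599).

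Among the receptors at week 4, Axl, the receptor with the highest affinity for Gas6, was at 34.2, 47.2 and 47.3 FPKM in normal samples and at 58.3, 69.4 and 63.4 FPKM in PBOO samples. The groups did not overlap, with a log2 fold change of 0.58 (SE 0.15, limma adjusted p = 0.0778). Tyro3, best known from the nervous system, was at 14.6, 9.41 and 11.6 FPKM in normal samples and at 9.37, 7.79 and 6.54 FPKM in PBOO samples. The highest PBOO value was just under the lowest normal value, and the log2 fold change was -0.57 (SE 0.21, limma adjusted p = 0.123). Mertk, the receptor through which macrophages engulf dead cells, was at 3.44, 4.93 and 6.71 FPKM in normal and at 4.73, 4.07 and 3.78 FPKM in PBOO samples, and these overlapped. Its log2 fold change was -0.21 (SE 0.26, limma adjusted p = 0.580). In all, 2 genes lay above the normal range in every PBOO sample, as did 6.63% of all genes, and 1 lay below it, as did 34.9%.

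Over all genes the log2 fold change at week 4 had a median of -0.25, and relative to it Gas6 was at 0.79, Axl at 0.84 and Tyro3 at -0.32. Median-ratio scaling brought that median to -0.01 and turned Pros1 to 0.10 and Mertk to 0.04, while Gas6, Axl and Tyro3 kept their direction. Without normal week 4 replicate 1, the log2 fold changes were 0.40 for Gas6, 0.43 for Axl, -0.41 for Tyro3, -0.36 for Pros1 and -0.45 for Mertk, with limma adjusted p-values of 0.139, 0.126, 0.253, 0.145 and 0.244. Over all genes, 42 were called at week 4, 71.4% of them higher, and without that sample 20 were called. The higher share was 86.4% with equal column sums and 87.1% after quantile normalization, and no gene was called after median-ratio scaling.

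**Figure D1:**
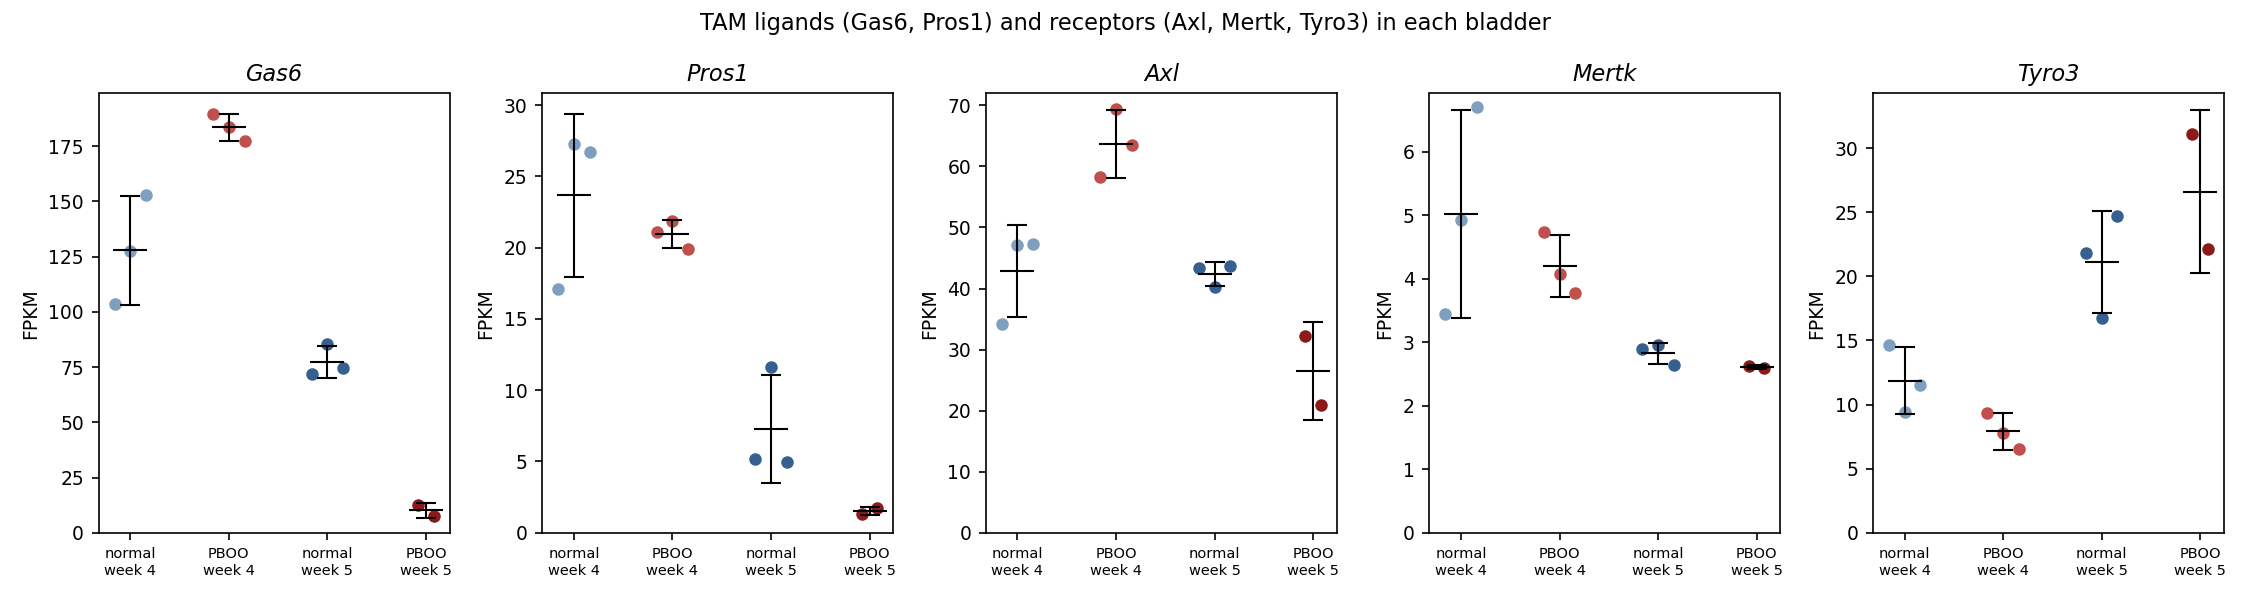
FPKM of Gas6, Pros1, Axl, Mertk and Tyro3 (vertical axis, linear, from 0, with its own range in each panel) in each sample, with groups along the horizontal axis. Points are samples, the horizontal line is the group mean and the bars are ± 1 SD (n = 3, and n = 2 for PBOO at week 5). Gas6 in PBOO bladders lies above the normal range at week 4 (177 to 190 FPKM) and far under it at week 5 (7.77 and 12.7 FPKM).

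At week 5, both ligands fell in the PBOO bladder, Gas6 by 2.94 and Pros1 by 2.08 on the log2 scale, and no receptor passed both thresholds. These 2 of 5 genes were called, against 19.3% of the 13685 genes tested, of which 11.4% were called lower. They were also lower by at least 4-fold at an unadjusted p under 0.05, as were 6.88% of all genes. Gas6 was at 71.9, 85.3 and 74.5 FPKM in the normal samples and at 12.7 and 7.77 FPKM in the PBOO samples. The normal samples were close to each other, and the groups were far apart. The means were 77.2 ± 7.12 FPKM (SD, n = 3) and 10.2 ± 3.46 (n = 2), so that Gas6 was 7.70-fold higher in normal bladders on the log2(FPKM + 0.1) scale (log2 fold change -2.94, SE 0.23, limma adjusted p = 0.000827). Only 3.7% of all genes tested had a lower log2 fold change. Without any 1 sample the log2 fold change stayed between -3.29 and -2.60, and Gas6 kept its call.

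Pros1 was at 5.15, 11.7 and 4.99 FPKM in the normal samples of week 5 and at 1.31 and 1.74 FPKM in the PBOO samples. The groups did not overlap, but normal replicate 2 was over 2-fold above the other normal samples. The log2 fold change was -2.08 (SE 0.42, limma adjusted p = 0.0166), or 4.22-fold higher in normal bladders. The call was lost without PBOO week 5 replicate 1 (log2 fold change -1.88, limma adjusted p = 0.0618), and without normal week 5 replicate 2 the log2 fold change was -1.68.

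Axl was at 43.4, 40.2 and 43.8 FPKM in the normal samples of week 5 and at 32.2 and 20.9 FPKM in the PBOO samples. Both PBOO samples were under the normal range, and they differed from each other more than the normal samples did. With a log2 fold change of -0.71 (SE 0.20, limma adjusted p = 0.0473), Axl passed the p threshold but not the 2-fold threshold. The value depended on the PBOO sample kept: without PBOO week 5 replicate 1 Axl was called (-1.02, limma adjusted p = 0.00496), and without PBOO week 5 replicate 2 the log2 fold change was -0.40 (limma adjusted p = 0.0489). Mertk was at 2.89, 2.95 and 2.64 FPKM in normal samples and at 2.63 and 2.59 FPKM in PBOO samples. The lowest normal value lay close to the higher PBOO value, and the log2 fold change of -0.11 (SE 0.18) had a limma adjusted p of 0.676. Tyro3 was at 21.8, 16.8 and 24.7 FPKM in normal samples and at 31.1 and 22.1 FPKM in PBOO samples. These overlapped, with a log2 fold change of 0.33 (SE 0.23, limma adjusted p = 0.314). Gas6, Pros1, Axl and Mertk thus lay under the normal range in both PBOO samples, as did 25.0% of all genes, and no member lay above it, against 35.3% of all genes.

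**Figure D2:**
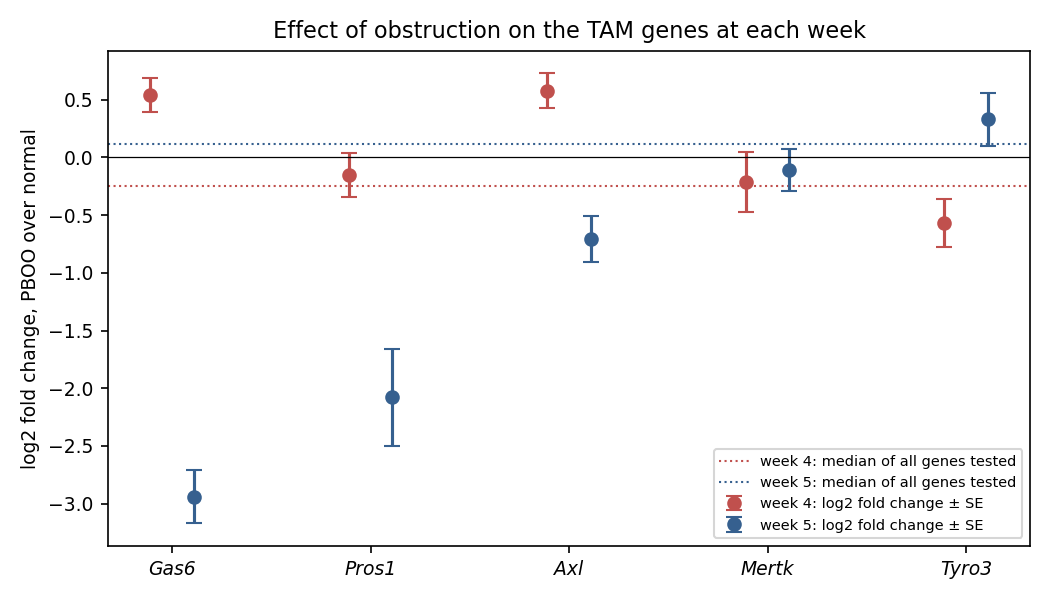
Log2 fold change of PBOO over normal (vertical axis, log2 scale) for each gene at week 4 (red) and week 5 (blue), where bars are ± SE from limma and dotted lines are the medians of all genes tested (-0.25 at week 4 and 0.12 at week 5). Gas6 goes from 0.54 to -2.94 and Axl from 0.58 to -0.71, while both values of Mertk lie within 1 SE of 0.

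The effect of PBOO differed between the weeks for 4 of the 5 genes in an interaction term fitted in limma over all 11 samples, against 40.0% of the 11296 genes tested. The effect was lower at week 5 for 3 of them, against 13.5% of all genes, and higher for 1, against 26.5%. Here a gene was called by the adjusted p alone. The Gas6 effect was lower at week 5 than at week 4 by 3.48 on the log2 scale, with SE 0.28 (log2 difference -3.48, limma adjusted p = 1.45e-05). For Pros1 the log2 difference was -1.93 (SE 0.46, limma adjusted p = 0.00885), and for Axl it was -1.29 (SE 0.26, limma adjusted p = 0.00413). Both kept their calls without any 1 sample. The median difference of all genes was 0.35, so these genes went against the median. Of all genes called, 66.2% had a higher effect at week 5, but 48.3% after median-ratio scaling, 51.7% after quantile normalization and 53.6% with equal column sums.

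Tyro3 differed in the other direction, by 0.90 (SE 0.33), at a limma adjusted p of 0.04997, next to the threshold. Its call was lost without PBOO week 4 replicate 2 or 3, normal week 4 replicate 1 or 3, PBOO week 5 replicate 1, or normal week 5 replicate 1 or 2, with log2 differences of 0.66 to 0.94 and limma adjusted p-values of 0.0777 to 0.168. It was also lost under all 3 other scalings, where the log2 difference was 0.62 to 0.74 and the limma adjusted p 0.136 to 0.174. Pseudocounts of 1 and 0.01, no filter on low values and eBayes without a trend ended it too (limma adjusted p 0.0503 to 0.0630). The direction was the same in each of these. Mertk had a log2 difference of 0.10 (SE 0.34, limma adjusted p = 0.832), and its sign turned under the 3 scalings (-0.18 to -0.03). Normal samples of week 4 and week 5 are separate samples, so the weekly effects share no control. A difference in effect between the weeks cannot be told apart from whatever else set their columns apart.

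FPKM is per exon length, so levels can be set side by side between genes within a sample. At week 4 the order of the mean level was Gas6, Axl, Pros1, Tyro3 and Mertk in normal and in PBOO samples alike, and the ranges of neighbours did not overlap in either group. Gas6 was 2.98 times the level of Axl in normal samples and 2.88 times in PBOO samples. In normal samples of week 5 the order was Gas6, Axl, Tyro3, Pros1 and Mertk, again with no overlap between neighbours. In PBOO samples of week 5 the order was Tyro3 (26.6 ± 6.32 FPKM, SD, n = 2), Axl (26.5 ± 8.05), Gas6 (10.2 ± 3.46), Mertk (2.61 ± 0.0269) and Pros1 (1.52 ± 0.309). Tyro3 and Axl overlapped there, and the other neighbours did not.

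In the PBOO samples of week 5 the ligands were low against the receptors. The summed FPKM of both ligands, divided by that of the 3 receptors, was 1.13, 1.62 and 1.12 in normal samples of week 5 and 0.212 and 0.209 in PBOO samples. At week 4 it was 2.31, 2.52 and 2.74 in normal samples and 2.91, 2.53 and 2.68 in PBOO samples, and these overlapped. The summed ligands at week 5 averaged 84.5 ± 10.9 FPKM (SD, n = 3) in normal and 11.7 ± 3.15 (n = 2) in PBOO samples, while the summed receptors, at 66.4 ± 5.77 and 55.8 ± 14.4 FPKM, overlapped.

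The shares of Axl and Tyro3 among the receptor transcripts of PBOO samples lay outside the normal range at each week, on opposite sides. Axl was 65.4%, 76.7% and 72.2% of the summed receptor FPKM in normal samples of week 4 and 80.5%, 85.4% and 86.0% in PBOO samples. At week 5 it was 63.7%, 67.1% and 61.6% in normal samples and 48.9% and 45.7% in PBOO samples. The groups overlapped at neither week, with Axl taking more of the receptor transcripts in PBOO samples at week 4 and less at week 5. Tyro3 was the counterpart, with means of 20.3% in normal and 10.5% in PBOO samples at week 4 and of 31.6% and 47.9% at week 5. The ratio of Axl to Tyro3 averaged 3.82 in normal and 8.28 in PBOO samples at week 4, and 2.05 and 0.989 at week 5. Exact permutation tests over samples, two-sided, gave p = 0.1 for each of these shares at week 4 and p = 0.2 at week 5, which are the smallest values that 3 against 3 and 3 against 2 samples allow. Adjusted over the 8 shares tested, these exact permutation p-values were 0.2 and 0.267. Without normal week 4 replicate 1, the difference at week 4, PBOO minus normal, went from 12.6 to 9.56 percentage points for Axl and from -9.84 to -6.00 for Tyro3.

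Mertk took 6.59%, 8.01% and 10.2% of the receptor transcripts in normal samples of week 4 and 6.53%, 5.01% and 5.13% in PBOO samples, without overlap (exact permutation p = 0.1, adjusted 0.2). At week 5 its share averaged 4.29% and 4.84% with overlap. Gas6 was 84.4% ± 1.82 (SD, n = 3) of both ligands in normal and 89.8% ± 0.333 (n = 3) in PBOO samples at week 4. At week 5 it was 91.7% ± 3.20 and 86.2% ± 6.34 with overlap, and Gas6 was the more abundant ligand transcript in every sample. Without normal week 4 replicate 1, the week 4 difference went from 5.33 to 6.02 percentage points for Gas6 and from -2.72 to -3.57 for Mertk.

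**Figure D3:**
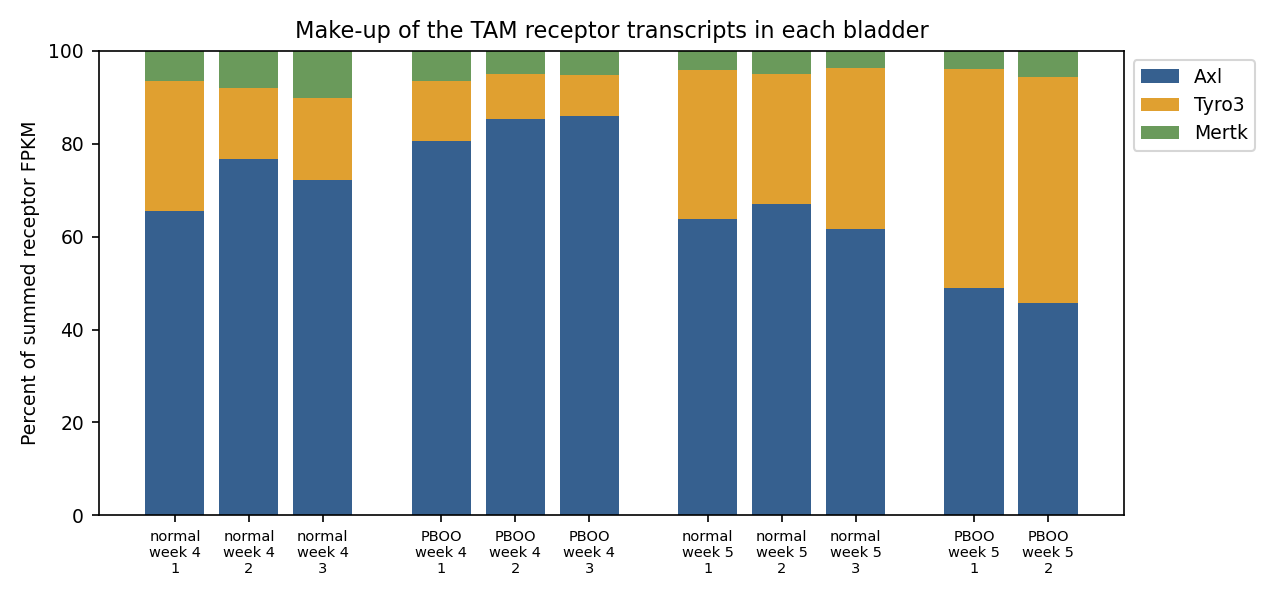
Stacked bars give Axl, Tyro3 and Mertk as a percent of their summed FPKM (vertical axis, 0 to 100%) in each of the 11 samples along the horizontal axis. Axl makes up 80.5% to 86.0% in the PBOO samples of week 4 and 45.7% to 48.9% in those of week 5, where Tyro3 reaches a like share.

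Fgf2, the growth factor that the study named together with Gas6, was at 4.07, 3.58 and 3.77 FPKM in normal and at 4.96, 7.64 and 5.97 FPKM in PBOO samples of week 4. The log2 fold change was 0.67 (SE 0.20, limma adjusted p = 0.0917), so Fgf2 was not called there either (0.72 without normal week 4 replicate 1, limma adjusted p = 0.148). At week 5 it was at 1.08, 1.15 and 1.001 FPKM in normal and at 0.0965 and 0.108 FPKM in PBOO samples, with a log2 fold change of -2.54 (SE 0.39, limma adjusted p = 0.00718). Its PBOO values lie near the pseudocount of 0.1, and with a pseudocount of 1 the log2 fold change was -0.91. The call was also lost without normal week 5 replicate 1 (limma adjusted p = 0.0630).

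Markers of several cell types of the bladder fell beside Gas6 and Pros1. At week 5 the summed FPKM of 9 fibroblast markers was between 1528 and 1937 in normal and between 133 and 185 in PBOO samples, with 7 of the 9 called lower (median log2 fold change -3.56, against 0.12 for all genes). The 9 smooth muscle markers summed to between 25000 and 29410 in normal and between 997 and 1866 in PBOO samples, and all 9 were called lower (median -4.42). Schwann cell markers had 4 of 6 called lower (median -2.89). Of all genes tested at week 5, 11.4% were called lower. In tissue, fewer cells of a type and less RNA per cell cannot be told apart. Gas6 amounted to 3.77% to 4.88% of the fibroblast marker sum in normal samples of week 5 and to 4.19% and 9.51% in PBOO samples. It was thus not lower relative to the sum, but this does not hold for each marker. The fibroblast markers Pdgfra (log2 fold change -1.25) and Cd34 (0.03) were not called and fell less than Gas6 (-2.94) or not at all. Of the smooth muscle marker sum, Gas6 amounted to 0.253% to 0.341% in normal and to 0.678% and 0.779% in PBOO samples. At week 4 the order was the opposite, with 0.371% to 0.594% of the smooth muscle sum in normal and 0.215% to 0.369% in PBOO samples. Axl was 2.08% to 2.86% of the fibroblast sum in normal and 11.3% and 24.2% in PBOO samples, and Pros1 was 0.270% to 0.601% and 0.941% and 0.981%. The part of these cell types in the fall of Gas6 and Pros1 was not tested.

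Urothelium markers, of which 12 were tested at week 5, summed to between 7911 and 10450 FPKM in normal and between 9739 and 10870 in PBOO samples. Of them 4 were called lower, against 11.4% of all genes. Among these were Upk2, from 1704 ± 140 to 324 ± 4.95 FPKM, and Krt20, from 66.9 ± 27.0 to 0.661 ± 0.394. The 2 called higher were Krt5, a keratin of basal cells, from 134 ± 43.1 to 1820 ± 1471 FPKM, and Krt19, from 888 ± 313 to 2852 ± 213, so that these keratins made up more of the sum in PBOO than in normal samples. Tyro3 amounted to 0.212% to 0.236% of that sum in normal and to 0.204% and 0.319% in PBOO samples. At week 4, where Tyro3 was lower in PBOO samples, their urothelium sum was also lower, between 4066 and 5067 against 6694 to 8516 FPKM. Tyro3 was 0.141% to 0.172% of it in normal and 0.161% to 0.185% in PBOO samples of week 4, and these overlapped. At week 4, 1 of 9 smooth muscle markers was called higher, against 0.371% of all genes called in either direction. In every PBOO sample of that week 7 of them lay above the normal range, as did 6.63% of all genes. Smooth muscle markers summed to between 51350 and 82640 in PBOO samples of week 4, against 25710 to 27860 in normal samples. Their part in the week 4 values of Gas6, Axl and Tyro3 was not tested.

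Some leukocyte markers rose at week 5. Macrophage markers, 13 of 14 of them in the table, summed to between 51.9 and 131 FPKM in normal and between 227 and 446 in PBOO samples, and 2 were called higher. The median log2 fold change of the 13 was 1.14. Cd68, a lysosomal protein of macrophages, was at 7.83 ± 3.70 FPKM (SD, n = 3) in normal and at 68.2 ± 7.27 (n = 2) in PBOO samples. Cd163 and Mrc1, receptors of tissue-resident macrophages, were low in both groups and were not called. Cd163 was at 0.631 ± 0.718 FPKM in normal and 0.312 ± 0.163 in PBOO samples (log2 fold change -0.39). Mrc1 was at 1.12 ± 0.805 and 0.684 ± 0.387 FPKM (-0.53). Mertk, which resident macrophages are known to carry, amounted to 2.25% to 5.08% of the macrophage sum in normal and to 0.581% and 1.16% in PBOO samples. Neutrophil markers summed to between 1.79 and 5.44 FPKM in normal and to 18.2 and 547 in PBOO samples, with 3 of 6 called higher. T cell markers had 3 of 7 called higher. Of all genes tested at week 5, 7.91% were called higher. At week 5 no endothelium, red cell or dividing cell marker was called, and at week 4 none of any list but the smooth muscle marker counted above. The part of these cells in the TAM results was not tested.

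**Figure D4:**
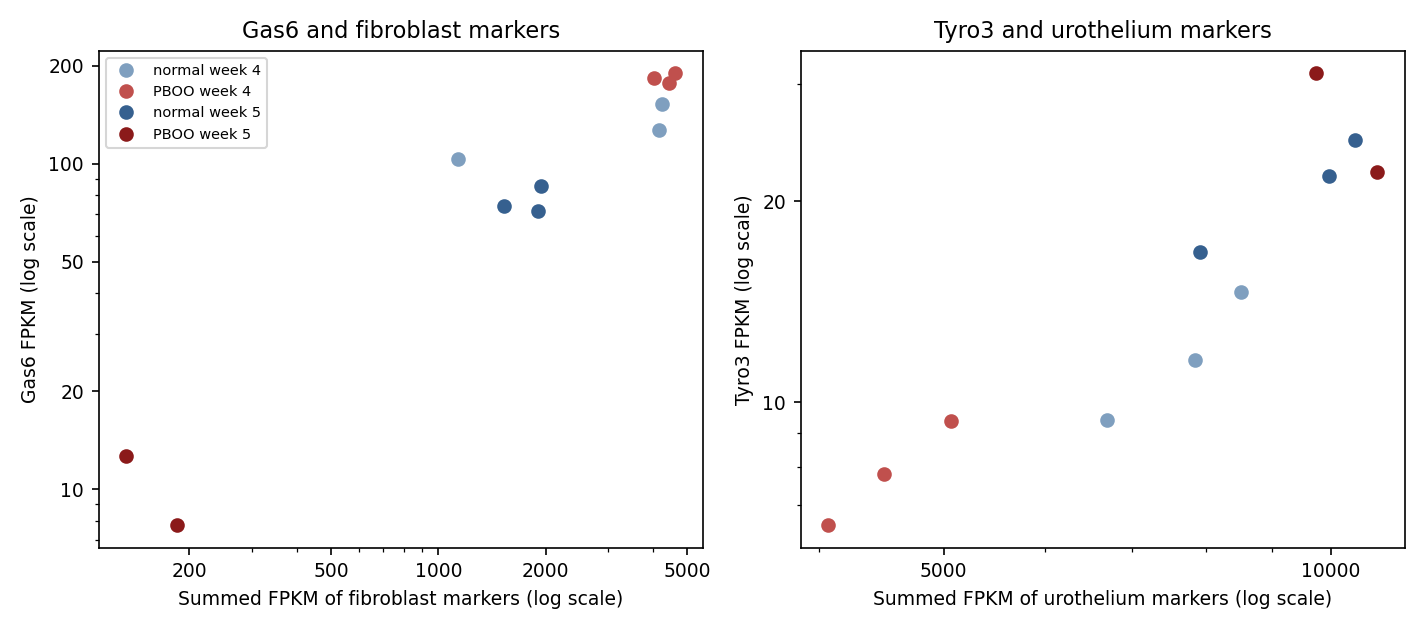
Gas6 FPKM against the summed FPKM of 9 fibroblast markers (left) and Tyro3 FPKM against the summed FPKM of 12 urothelium markers (right), with log scales on all axes and a point for each of the 11 samples. The PBOO samples of week 5 lie at the lower left for Gas6 (133 and 185 FPKM of fibroblast markers), and those of week 4 at the lower left for Tyro3.

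The genes with the pattern most like each of the 5 were found by Pearson's r of log2(FPKM + 0.1), each week centred on its own mean, over the 11 samples and among 9970 genes. These r values describe samples that share their libraries, tissue make-up and the contrast between groups. For Gas6 they were Myl9, the regulatory light chain of smooth muscle myosin (r = 0.992), Tpst1, a tyrosine sulfotransferase (0.989), and Fgfr1, an FGF receptor (0.989). For Pros1 they were Cd36, a scavenger receptor (0.985), the adhesion molecule gene Cadm3 (0.974) and Stard8 (0.969). For Axl they were Kctd21 (0.962), the peptide amidating enzyme gene Pam (0.948) and Ostm1 (0.944). Mertk was nearest to Eci2 (0.921) and Mcee (0.911), both of mitochondrial metabolism, and to Arl6 (0.878).

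Tyro3 was nearest to the epithelial genes Cdh1, or E-cadherin (0.980), Tgfa (0.977) and Ezr, or ezrin (0.975). Among the 5 genes themselves, r was 0.87 between Gas6 and Pros1, 0.81 between Gas6 and Axl, 0.52 between Pros1 and Axl, -0.43 between Gas6 and Tyro3 and -0.57 between Axl and Tyro3. Between Mertk and each of the others it was 0.02 to 0.36. Of the neighbours of Gas6, Myl9 had a log2 fold change of 0.83 at week 4 (limma adjusted p = 0.0755) and of -4.10 at week 5 (limma adjusted p = 0.000288), and Fgfr1 of 0.40 and -2.23 (limma adjusted p = 0.105 and 0.000382). Cdh1, next to Tyro3, was at -0.62 and 0.41 and was called at neither week.

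The genes that make, read or limit TAM signalling were then counted in 9 lists of 111 distinct genes, of which 109 were in the table. At week 4, 85 were tested and 1 was called, Tfpi, which fell (1.18%, against 0.371% of all genes). At an unadjusted p under 0.05 there were 21 (24.7%, against 32.0% of all genes), and without normal week 4 replicate 1 there were 16 (18.8%, against 25.5%). The median log2 fold change of the 85 genes was -0.20, against -0.25 for all genes. Tfpi, the tissue factor pathway inhibitor that uses protein S as a cofactor, was at 40.2 ± 5.56 FPKM (SD, n = 3) in normal and 19.6 ± 1.24 (n = 3) in PBOO samples (log2 fold change -1.02, limma adjusted p = 0.0483). Its call was lost without any 1 of the 6 samples of week 4 (limma adjusted p 0.0175 to 0.214, with log2 fold changes of -1.13 to -0.93) and under all 3 other scalings, which gave -0.93 to -0.77.

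With Tfpi, 3 of the 85 genes (3.53%) passed a 2-fold change at an unadjusted p under 0.05 in that week, as did 4.90% of all genes. Calu, or calumenin, an inhibitor of the vitamin K cycle in the endoplasmic reticulum, was at 129 ± 17.5 FPKM in normal and 370 ± 168 in PBOO samples (log2 fold change 1.42, limma adjusted p = 0.0702). Mfge8, which bridges phosphatidylserine to integrins on engulfing cells, was at 96.4 ± 7.35 and 302 ± 121 FPKM (1.58, limma adjusted p = 0.0521). Both passed the test without PBOO week 4 replicate 1, with log2 fold changes of 1.81 and 1.79 (limma adjusted p = 0.01002 and 0.0131), and Mfge8 also with equal column sums (1.67, limma adjusted p = 0.0453). Without normal week 4 replicate 1 they were at 1.3 and 1.59 (limma adjusted p = 0.136 and 0.0953).

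At week 5, 90 genes of the 9 lists were tested, 17 were called higher (18.9%, against 7.91% of all genes) and 13 lower (14.4%, against 11.4%), together 33.3% against 19.3%, with a median of 0.18 against 0.12. The lists were chosen with earlier results of these data known, so an excess over all genes is not independent evidence. The higher count was 8 without normal replicate 1, 9 without normal replicate 3, 11 without normal replicate 2, 11 without PBOO replicate 2 and 22 without PBOO replicate 1, and the lower count was 12 to 14 throughout. Of 6 tested genes of the vitamin K cycle, 2 fell and 1 rose. Vkorc1, the epoxide reductase that is the target of warfarin, fell from 27.8 ± 2.23 to 10.2 ± 1.296 FPKM (log2 fold change -1.44, limma adjusted p = 0.00184), and Calu fell from 92.0 ± 8.62 to 33.5 ± 2.29 (-1.45, limma adjusted p = 0.00133). Nqo1, a quinone reductase, rose from 106 ± 6.79 to 334 ± 198 FPKM (1.52, limma adjusted p = 0.0302), but its call was lost without PBOO replicate 2 or any 1 normal sample (0.87 to 1.56). Ggcx, the carboxylase of the Gla domain itself, was at 19.6 ± 1.19 and 14.0 ± 1.76 FPKM and was not called (-0.48, limma adjusted p = 0.0469).

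Among other Gla proteins, 1 of 4 tested fell at week 5, against 11.4% of all genes. This was Mgp, an inhibitor of calcification, from 290 ± 96.2 to 67.0 ± 24.4 FPKM (log2 fold change -2.11, limma adjusted p = 0.00899). Of 4 tested partners of protein S in coagulation, Procr, the receptor of protein C, rose from 4.09 ± 0.433 to 12.1 ± 2.01 FPKM (1.54, limma adjusted p = 0.00301). Tfpi was at 19.8 ± 5.73 and 7.97 ± 7.14 FPKM there and was not called (-1.61, limma adjusted p = 0.110), though it was without PBOO week 5 replicate 2 (-2.67, limma adjusted p = 0.0101). Both tested alternative ligands of Mertk were called higher, against 7.91% of all genes. Lgals3, or galectin-3, rose from 502 ± 101 to 1373 ± 369 FPKM (1.44, limma adjusted p = 0.0113) and Tulp1 from 1.28 ± 0.141 to 2.93 ± 0.147 (1.14, limma adjusted p = 0.0158). Without normal week 5 replicate 1 neither was called (limma adjusted p = 0.0568 and 0.0763), and without normal replicate 3 Tulp1 was not (limma adjusted p = 0.0538). At a pseudocount of 1, Tulp1 was at 0.78.

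Of 11 tested genes of phosphatidylserine exposure, 2 rose and 2 fell at week 5, against 7.91% and 11.4% of all genes. The scramblase gene Plscr1 rose from 6.29 ± 0.439 to 19.3 ± 5.62 FPKM (log2 fold change 1.57, limma adjusted p = 0.00452). Plscr4 fell by 1.55 on the log2 scale and Ano6, the calcium-activated scramblase, by 1.16, although without PBOO week 5 replicate 2 Ano6 fell by 0.86 and was under the 2-fold threshold. Of 24 engulfment genes, 4 fell and 2 rose. Among all genes tested, 11.4% were called lower and 7.91% higher. The integrin subunit gene Itgb3 fell from 12.4 ± 1.55 to 1.13 ± 0.299 FPKM (-3.37, limma adjusted p = 0.000521), Cd36 by 3.04 and the adaptor gene Gulp1 by 2.60. The call of Cd36 was lost without PBOO week 5 replicate 1 (-2.80, limma adjusted p = 0.0501). With a pseudocount of 1, Itgb3 was at -2.66, Cd36 at -1.59 and Gulp1 at -1.22. Ucp2, an uncoupling protein of mitochondria, rose from 220 ± 10.4 to 719 ± 77.6 FPKM (1.70, limma adjusted p = 0.00103). Havcr2, or Tim-3, rose from 0.525 ± 0.198 to 2.03 ± 0.910 (1.76, limma adjusted p = 0.0401), and lost its call without PBOO replicate 2 or any 1 normal sample (limma adjusted p 0.0760 to 0.126) and with a pseudocount of 1 (0.97).

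**Figure D5:**
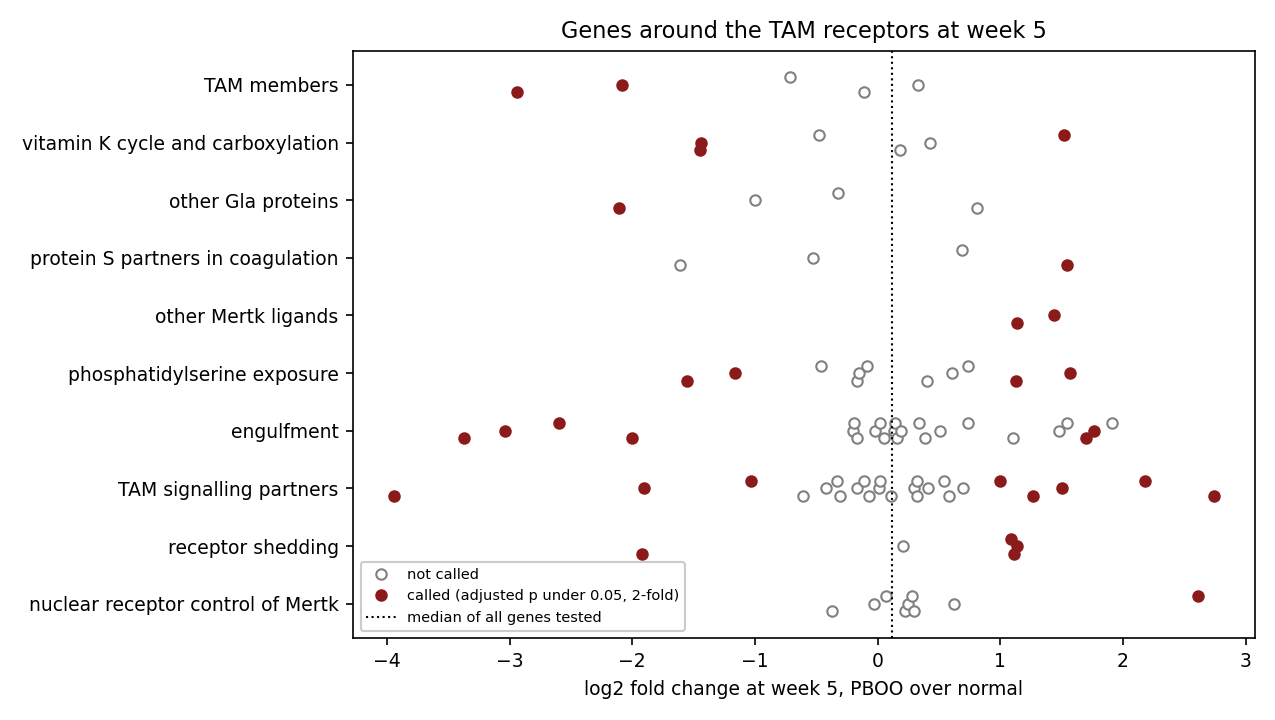
Log2 fold change at week 5, PBOO over normal (horizontal axis, log2 scale), of each tested gene of the TAM ligands and receptors and of 9 lists around them (rows). Filled points were called, open points were not, and the dotted line is the median of all genes (0.12). Receptor shedding has 3 of 5 genes called higher, against 7.91% of all genes, and Twist1 lies at -3.94.

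Among 25 signalling partners at week 5, 5 rose and 3 fell, with a median of 0.11 against 0.12 for all genes. The shares called over all genes were 7.91% higher and 11.4% lower. Socs3, a feedback inhibitor of cytokine receptors, rose from 6.03 ± 0.520 to 45.1 ± 27.7 FPKM (log2 fold change 2.74, limma adjusted p = 0.00543). Vav1, an exchange factor of leukocytes (2.18, limma adjusted p = 0.0440), and Socs1 (1.50, limma adjusted p = 0.04997) rose as well. Both lost their calls without PBOO replicate 2 or any 1 normal sample, with log2 fold changes of 1.45 to 2.57 for Vav1 and of 0.78 to 1.62 for Socs1. They were also lost with no filter on low values and with eBayes without a trend. The call of Socs1 was lost under 6 other settings in all (limma adjusted p 0.0505 to 0.0781), among them both other pseudocounts and median-ratio scaling. Twist1, a transcription factor induced through Axl in other cells, fell from 4.53 ± 0.298 to 0.259 ± 0.274 FPKM (-3.94, limma adjusted p = 0.00470), and by 2.15 on the log2 scale with a pseudocount of 1. Tns2, which binds Axl, fell from 29.2 ± 1.61 to 7.79 ± 0.803 (-1.90, limma adjusted p = 0.000577). The phosphatase gene Ptpn11 fell by 1.03, and by 0.83 and 0.99, under the 2-fold threshold, without PBOO replicate 2 or normal replicate 3. The kinase gene Akt1, at 65.0 ± 3.70 and 67.0 ± 18.7 FPKM, and the adaptor gene Grb2, at 36.7 ± 0.588 and 34.2 ± 4.10, were not called.

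In the list of receptor shedding, by which the outer part of Axl and Mertk is cut off the cell, 3 of 5 genes rose and 1 fell at week 5 (median 1.09). Of all genes tested, 7.91% were called higher and 11.4% lower. The protease gene Adam17 rose from 18.6 ± 2.78 to 39.2 ± 0.0999 FPKM (log2 fold change 1.09, limma adjusted p = 0.00543). Its escort proteins Rhbdf1 (1.11, limma adjusted p = 0.0116) and Rhbdf2 (1.14, limma adjusted p = 0.00388) rose with it, although Rhbdf1 was at 0.94 without normal replicate 2. Timp3, an inhibitor of Adam17, fell from 25.1 ± 3.55 to 6.54 ± 0.921 FPKM (-1.92, limma adjusted p = 0.00145). Adam17 was at 0.98 and thus under the 2-fold threshold after median-ratio scaling, and Rhbdf1 likewise after quantile normalization. The 9 genes of nuclear receptor control of Mertk had a median of 0.25, against 0.12 for all genes, and none fell. Some macrophage, neutrophil and T cell markers were called higher at the same week, with the counts given above, and their part in the list counts was not tested.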

How the data were processed

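Bladder tissues of rats were measured by RNA-seq in 11 samples, grouped by the sample labels. According to the methods and the labels' processing notes, the authors made TruSeq libraries, mapped reads with HISAT2, assembled them with StringTie and expressed genes as FPKM, and the deposited table holds these FPKM values with no read counts. The authors' processing notes name bcl2fastq 2.0, DESeq2 and limma as well, and the mouse build mm10 with no role; the build of the rat reads and the strand of counting are not given in the sources used here. Depth is therefore unknown, and the count test that the authors ran was not run here.

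Genes whose mean reached 0.5 FPKM in the samples of a comparison were tested on log2(FPKM + 0.1) with limma 3.58.1 (R 4.3.3; lmFit, eBayes with a trend), each week on its own and, for the difference between weeks, over all 11 samples. Benjamini-Hochberg adjustment was over all genes tested. Calls needed an adjusted p under 0.05 and a 2-fold change, the threshold of the methods. Shares were tested by exact permutation (scipy 1.17.1). Other steps used pandas 2.3.3, numpy 2.4.6 and matplotlib 3.10.9 in Python 3.11.15. The steps were tested on simulated data with 200 genes changed by a log2 of 2, of which 86.5% were recovered at week 4 (11320 genes), 73% at week 5 (13685 genes) and 71.5% between weeks (11296 genes) with 5, 6 and 6 false calls.

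Members and lists were chosen with earlier results of these data known. Named genes were, from each list, up to 3 per direction and week with the largest change among called genes whose mean reached 1 FPKM and whose groups did not overlap, or, where none was called, among those past a 2-fold change at an unadjusted p under 0.05; for each member, the 3 genes with the highest r; and Fgf2. Values of 2 genes that meet this rule are not given. Ggcx, Akt1, Grb2 and the marker genes were named after their values were seen. Alternatives were other pseudocounts, filters and scalings, eBayes without a trend, a replicate block, a fit of all samples and leaving out each sample. Those for list counts and other genes were added after the data were seen.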

Additional observations from a re-analysis of the deposited data

Results flagged for a closer look

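The effect of PBOO on 4 genes differed between week 5 and week 4 by an interaction term fitted in limma. The log2 difference was -3.48 for Gas6, -1.93 for Pros1, -1.29 for Axl and 0.90 for Tyro3, with limma adjusted p-values of 1.45e-05, 0.00885, 0.00413 and 0.04997. A difference of this kind was called for 40.0% of all genes tested. The call of Tyro3 was not stable: it was lost under 7 other settings, among them all 3 other scalings, and without several single samples. No sample of the 5 genes could be tested for standing apart, because each group held fewer than 4 samples.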

How the results depend on the processing

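The number of the 5 genes called was 0 at week 4 and 2 at week 5 under every alternative run, and 3 or 4 between weeks, where Tyro3 was lost or kept. At week 5 the genes behind the count of 2 were Gas6 and Axl, not Gas6 and Pros1, without PBOO week 5 replicate 1. Directions that turned were those of small values. Pros1 at week 4 was at 0.10 with median-ratio scaling and 0.05 after quantile normalization, and Mertk at week 4 was at 0.04 with median-ratio scaling and at -0.45 to 0.02 with 1 sample left out (positive without normal replicate 3). The Mertk difference between weeks was -0.18 with median-ratio scaling, -0.06 with equal column sums, -0.03 after quantile normalization and -0.13 to 0.34 with 1 sample left out (negative without normal week 4 replicate 3). The Mertk share of the receptors at week 5, PBOO minus normal, was -0.30 to 1.39 percentage points with 1 sample left out. Of genes most like Mertk, Mcee at week 4 was at 0.02 with median-ratio scaling, and Eci2 at week 5, at 0.00, was at -0.10, -0.07 and -0.06 under the 3 scalings, at -0.08 with the replicate block and at -0.08 to 0.12 with 1 sample left out.

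Replicate numbers do not pair the samples: same-numbered deviations correlated at 0.154, -0.024 and 0.232 at week 4 and at -0.001 and 0.124 at week 5. With the replicate block, calls over all genes went from 42 to 55 at week 4, from 2637 to 2319 at week 5 and from 4516 to 3664 between weeks. The block left the counts of the 5 genes at 0, 2 and 4, with the Tyro3 difference at 1.02 (limma adjusted p = 0.0193), and, of the named genes, ended the calls of Fgf2 (0.0582), Havcr2, Tulp1, Socs1 and Ptpn11 at week 5 and of Tfpi at week 4. Calls over all genes at week 4 were 0 with no filter, with median-ratio scaling, with eBayes without a trend and without PBOO replicate 2 or 3 or normal replicate 2 or 3, 719 without PBOO replicate 1, 85 after quantile normalization and 242 with all 11 samples in the fit. At week 5 they were 1679 without normal replicate 1. Depth is unknown, so no limit from counting can be given.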
